A study of Homo sapiens with 9 samples.

Results

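MV4-11, an established human cell line from acute myeloid leukaemia, was compared after 24 h with JPX-0700 and after 24 h with DMSO, the solvent used as vehicle control. The series title names JPX-0700 as a degrader of the transcription factors STAT3 and STAT5, and the sources used here do not give its dose. Each group had 3 libraries of the 3′ ends of transcripts, and all were grown in the same RPMI-1640 medium with serum and antibiotics. A gene was compared when its normalised read count averaged at least 5 over these 6 libraries, which 11910 of the 26929 genes in the deposited table did, among them 1728 whose DMSO mean was under 5 and 247 whose JPX-0700 mean was under 5. The 3 libraries of a related compound, JPX-0750, served only to estimate the spread between replicates. MV4-11 is a single line. The sources used here do not say that replicates came from separate cultures, and p-values then measure only the spread between these libraries, which may be technical.

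STAT3 and STAT5 are phosphorylated by JAK kinases and by receptor kinases such as FLT3, pair up, and enter the nucleus to switch on genes for growth and survival. MV4-11 carries an activating duplication within FLT3 and depends on signalling from it. A degrader lowers the amount of a protein, which transcript counts do not measure. Cells that meet misfolded protein raise chaperones through the heat shock factor HSF1, and cells that slow translation through phosphorylation of an initiation factor raise ATF4, DDIT3 and their targets, a program known as the integrated stress response.

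The DMSO libraries held 2701317 to 6305586 reads on genes and the JPX-0700 libraries 739418 to 1852375, so 1 read was worth a normalised count of 0.383 to 0.898 with DMSO and of 2.78 to 4.61 with JPX-0700. Of the genes compared, 2372 had no read in DMSO replicate 1 and 2570 had none in JPX-0700 replicate 3, against 238 to 686 in the other libraries. Across genes the log2 values of JPX-0700 replicate 3 correlated at 0.587 and 0.600 with its partners, which correlated at 0.843 with each other, and the DMSO libraries correlated at 0.859 to 0.937. Counts of genes are therefore also given without these 2 libraries and JPX-0750 replicate 3, which stood apart in the same way. These are called the 3 sparse libraries, for their few genes and not for their depth. JPX-0700 replicate 3 had the most reads of its group, 1852375, on 10027 genes, against 13940 and 14228 genes in its partners. JPX-0750 replicate 3 also had the most reads of its group, 1941860, on 10407 genes. DMSO replicate 1 had the fewest of its group, 2701317, on 9816 genes. All 10 markers of the labelled leukaemia line were in the table and 9 passed the filter, with summed counts of 6146 to 9765 with DMSO and 3119 to 5219 with JPX-0700, and HOXA9 did not pass. In RNA from whole cultures, fewer cells of a kind and less RNA per cell cannot be told apart. Summed T and NK cell markers ran from 83.2 to 96.1 and from 59.6 to 91.7, and of these KLRD1 and LCK had no read. B cell markers summed to 7.67 to 17.1 and 13.9 to 36.9, epithelial and fibroblast markers to 28.5 to 56.0 and 16.7 to 83.0, and erythroid and megakaryocyte markers to 0 to 2.68 and 3.73 to 5.56, with haemoglobin genes HBB, HBA1 and HBA2 at 0.

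With JPX-0700, 651 genes rose (5.47% of those tested) and 60 fell (0.504%), together 5.97%, by limma with adjusted p under 0.05. These shares are the background for every count of list members below. Genes that rose had a median log2 difference of 4.26 (1.42 to 12.41), those that fell one of -2.45 (-5.21 to -1.64), and all genes tested one of 0.11, with 90 of 100 genes between -2.25 and 3.78. The JPX-0700 libraries lay wholly above the DMSO libraries in 17.1% of genes and wholly below them in 10.7%, and all 711 called genes were among these. Where the groups of a called gene are said to lie apart, this describes the values and adds nothing to the call. Protein-coding genes made up 403 of the genes that rose, 3.78% of 10670 tested, and all 60 that fell. Of 255 structured RNAs 150 rose, 58.8%, as did 55 of 529 long noncoding RNAs. Calls of 336 genes that rose (2.82%) and 2 that fell (0.0168%), COLGALT1 and MCM2, held in each of 6 fits that left out 1 DMSO or JPX-0700 library. Without DMSO replicate 1 or 2 the numbers that rose were 409 and 374 and those that fell 6 and 5. Fits lacking JPX-0700 replicate 2 or 3 called 135 and 126 genes lower. Scaling every library to the same total of reads called 380 genes higher (3.19%) and 281 lower (2.36%). The fit that left out the 3 sparse libraries called 2213 higher (18.6%) and 495 lower (4.16%), and these included 674 of the 711.

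**Figure D1:**
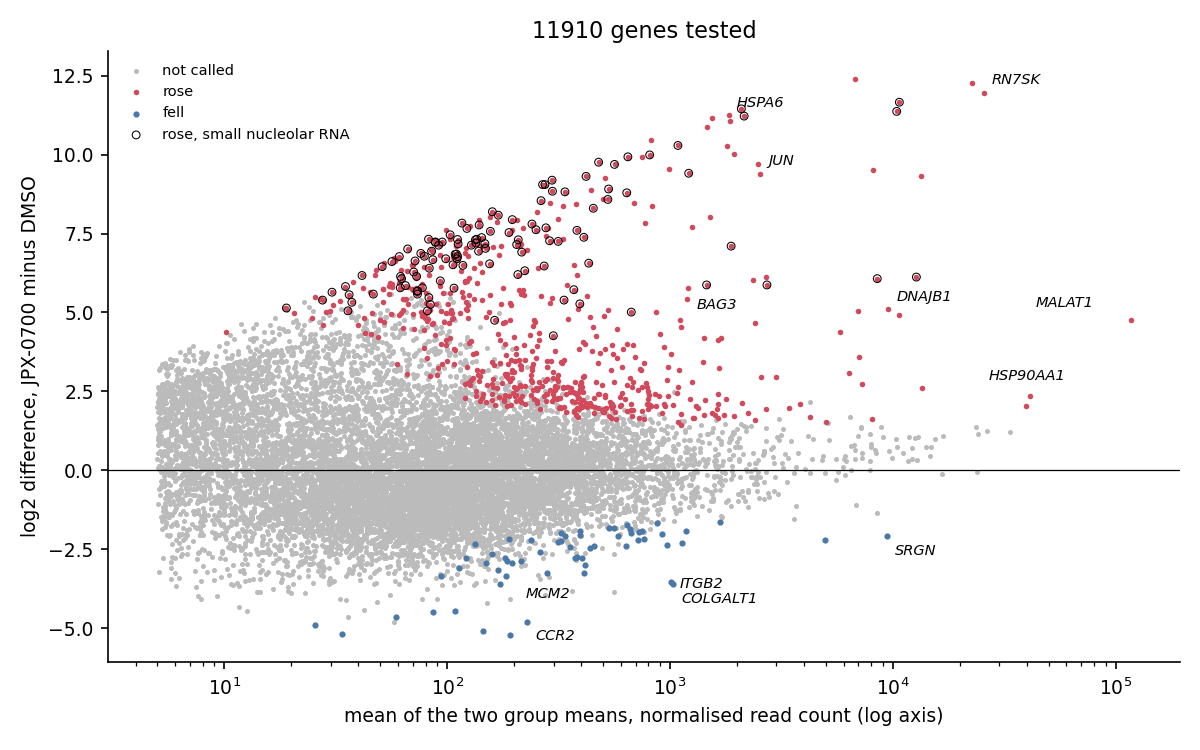
Log2 difference between JPX-0700 and DMSO (vertical axis) against the mean normalised read count (horizontal log axis) for 11910 genes, one point each; red genes rose, blue genes fell, and open circles mark small nucleolar RNAs that rose. The 651 genes that rose reach a log2 difference of 12.41, while the lowest of the 60 that fell is at -5.21.

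The genes of the named target proteins did not pass the test. STAT3 had normalised counts of 279, 69.4 and 146 with DMSO and 143, 242 and 47.2 with JPX-0700, so the groups overlapped (log2 difference -0.26 ± 0.85, SE, adjusted p = 0.888). STAT5A had 108, 75.2 and 42.5 against 23.0, 44.7 and 91.7 (-0.61 ± 1.13, adjusted p = 0.786), and STAT5B had 59.3, 47.9 and 71.1 against 73.7, 41.0 and 13.9 (-0.73 ± 1.45, adjusted p = 0.801). The JPX-0700 group held 113, 50 and 32 reads for the 3 genes, and the 95% intervals of their log2 differences ran from -2.06 to 1.54, from -2.99 to 1.78 and from -3.79 to 2.33. Of 23 STAT genes, kinases and cytokine receptors tested, 0 passed in either direction, with a median of -0.50. At an unadjusted p under 0.05 limma counted 4 of them, and voom, a related model run on the recovered reads, called 1 higher. Over all 11910 genes limma counted 2414 at that unadjusted p, and voom called 821 higher and 134 lower. These numbers are the background for each such count of list members here and below. Of 21 STAT target genes 1 rose, the angiogenic growth factor gene VEGFA, a share near the background of 5.47%, 8 had an unadjusted p under 0.05, and the list's median was -0.55. VEGFA had 71.8, 36.0 and 58.1 with DMSO and 433, 362 and 114 with JPX-0700 (2.27 ± 0.65, adjusted p = 0.0478). Its call was lost without any 1 library except JPX-0700 replicate 3 (adjusted p = 0.0898 to 0.201), and without that library the difference was 2.87. The next of these lists by p were IL2RA, a cytokine receptor gene with 5 DMSO reads and 52 JPX-0700 reads (4.81 ± 1.46, adjusted p = 0.0637), and KIT, a receptor kinase gene with 347, 121 and 194 against 83.0, 48.4 and 0 (-3.65 ± 1.29, adjusted p = 0.116).

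Of 35 listed chaperone genes of the HSP70 system 30 were tested, 10 rose (background 5.47%) and 0 fell, and all 10 calls held in each fit without 1 library. The median log2 difference of the 30 was 1.38, against 0.11 over all genes, and 25 were above 0. In 3 of the 30 and 1 of the 10 risers the DMSO mean was under 5, so these passed the filter through the JPX-0700 libraries. HSP70 and HSP110 proteins bind unfolded stretches, J-domain proteins hand clients to them, BAG proteins make them release, and small heat shock proteins hold clients in reserve. By these roles 4 of 9 HSP70 and HSP110 genes, 4 of 14 J-domain genes, 1 of 5 BAG genes and 1 of 2 small heat shock genes rose. The genes of this list took 0.399% ± 0.0735 (SD, n = 3) of reads with DMSO and 1.62% ± 0.203 with JPX-0700 (two-sided exact permutation test, p = 0.1, the smallest that 3 against 3 allow).

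HSPA6 (chr1:161524540-161526894) is a strictly stress-inducible HSP70 gene. Its normalised counts were 0, 0.767 and 0 with DMSO and 2572, 1401 and 7003 with JPX-0700, from 2 reads and 3454 reads. The ratio of reads at scaled depth was 11400, with a 95% counting interval of 3154 to 94173, and reads without molecular identifiers are not independent molecules, so such intervals cover counting error only. The fitted log2 difference of HSPA6 was 11.25 ± 0.63, and 10.62 without JPX-0700 replicate 3. HSPA7, a near-identical copy named after its values were seen, had 1 and 230 reads, and the sources used here do not say how reads were divided between the copies. HSPA1A was listed at 0 in every library and HSPA1B had 1 and 8 reads. These 2 genes are near-identical copies too. BAG6, LSM2 and TAP1, which are not copies of them, were also listed at 0 in every library, and these zeros are not read as levels.

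DNAJB1, the J-domain partner of HSP70 in disaggregation, had 935, 421 and 378 with DMSO and 16549, 16133 and 22693 with JPX-0700 (5.10 ± 0.43, adjusted p = 5.1e-07). BAG3, which links HSP70 to autophagy, had 57.5, 36.4 and 32.8 against 3272, 1666 and 2148 (5.76 ± 0.46, adjusted p = 3.02e-07). HSPH1, the HSP110 exchange factor, had 1354, 846 and 1838 against 15462, 11553 and 7078 (3.08 ± 0.44, adjusted p = 0.000223). In all 3 genes every JPX-0700 library lay above every DMSO library, as in every gene that rose, and the lowest treated value was several times the highest control value. HSPB1, a small heat shock protein, had 263, 491 and 481 against 8411, 3037 and 22181 (4.38 ± 0.62, adjusted p = 0.000197), with 5.10 and 3.67 without JPX-0700 replicates 2 and 3. DNAJB4, whose annotated span overlaps FUBP1, had 0, 19.6 and 21.0 against 1009, 425 and 759. Its log2 difference was 6.49 ± 0.98 (adjusted p = 0.000368), and 5.02, 7.2 and 7.25 without DMSO replicates 1, 2 and 3. HSPA2, an HSP70 known from the testis, had 0, 17.3 and 9.69 against 498, 388 and 158 (5.76 ± 1.06, adjusted p = 0.00249), with 4.49 and 6.58 without DMSO replicates 1 and 2. The other risers of the list, given here to account for all 10, were HSPA4L (3.72), DNAJA4 (3.41) and DNAJA1 (1.76). HSPA8, the constitutive HSP70, had a log2 difference of 1.41 ± 0.43 and did not pass (adjusted p = 0.064).

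Among 19 HSP90 genes, co-chaperones and heat shock factors, 4 rose (background 5.47%) and 0 fell, with a median of 1.05. AHSA2, an activator of the HSP90 ATPase, had 24.2, 71.7 and 48.5 with DMSO and 677, 611 and 1017 with JPX-0700 (4.06 ± 0.54, adjusted p = 9.58e-05), and its span overlaps USP34, which rose as well (2.16). CHORDC1, an HSP90 partner, had 200, 81.7 and 167 against 1350, 902 and 1756 (3.19 ± 0.47, adjusted p = 0.000304). HSP90AA1, the inducible HSP90, had 14366, 11955 and 13106 against 55773, 52451 and 99308 (2.34 ± 0.44, adjusted p = 0.00274). These groups do not overlap either, as in every called gene. HSP90AA1 did not pass with JPX-0700 replicate 3 left out (2.05, adjusted p = 0.134) and in the fit that left out the 3 sparse libraries (2.11, adjusted p = 0.0943), and quantile normalization ended its call as well. ST13, which bridges HSP70 and HSP90, rose by 2.02 ± 0.43 (adjusted p = 0.00896, and 0.0562 without DMSO replicate 2). None of the 4 heat shock factor genes tested passed, with log2 differences from -0.73 to 2.34.

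Heat shock factors bind repeats of the letters GAA in alternating orientation. A heat shock element of 3 such repeats, each 2 bases from the next, was searched on both strands in RefSeq promoters (GRCh38.p14) in the table's 300-base window around each start. It was in 3 of 12 promoters matched to risers of the HSP70 and HSP90 lists (HSPA6, CHORDC1 and DNAJA1), in 2 of 30 matched to genes of these lists that did not pass (HSPA8 and DNAJB6), in 0.316% of 8851 promoters of protein-coding genes tested and in 0.487% of all 27305 promoters. Such a match is a description of the sequence and not a measured site. Those of the 3 chaperone genes whose match lies nearest before the start are printed 5′ to 3′ with the matching letters in capitals, to show where they lie, and the match of DNAJB6 ends 118 bases before its start. HSPA6 covers chr1:161524428-161524517 on the plus strand, CHORDC1 chr11:90223050-90223139 and HSPA8 chr11:123062140-123062229 on the minus strand.
HSPA6: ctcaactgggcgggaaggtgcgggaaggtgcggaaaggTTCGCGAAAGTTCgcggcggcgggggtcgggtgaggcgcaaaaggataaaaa
CHORDC1: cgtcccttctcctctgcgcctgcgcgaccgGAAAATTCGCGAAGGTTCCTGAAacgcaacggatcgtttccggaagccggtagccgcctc
HSPA8: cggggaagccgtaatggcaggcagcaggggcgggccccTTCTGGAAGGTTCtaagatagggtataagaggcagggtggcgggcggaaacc
The CHORDC1 window holds 3 overlapping matches, the last ending 37 bases before the start, while those of HSPA6 and HSPA8 end 61 and 42 bases before it. The dimer motif TTCNNNGAA, which STAT proteins bind, was in 18 of 328 promoters of protein-coding genes that rose (5.49%), in 1 of 48 of those that fell (2.08%) and in 6.59% of the 8851.

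**Figure D2:**
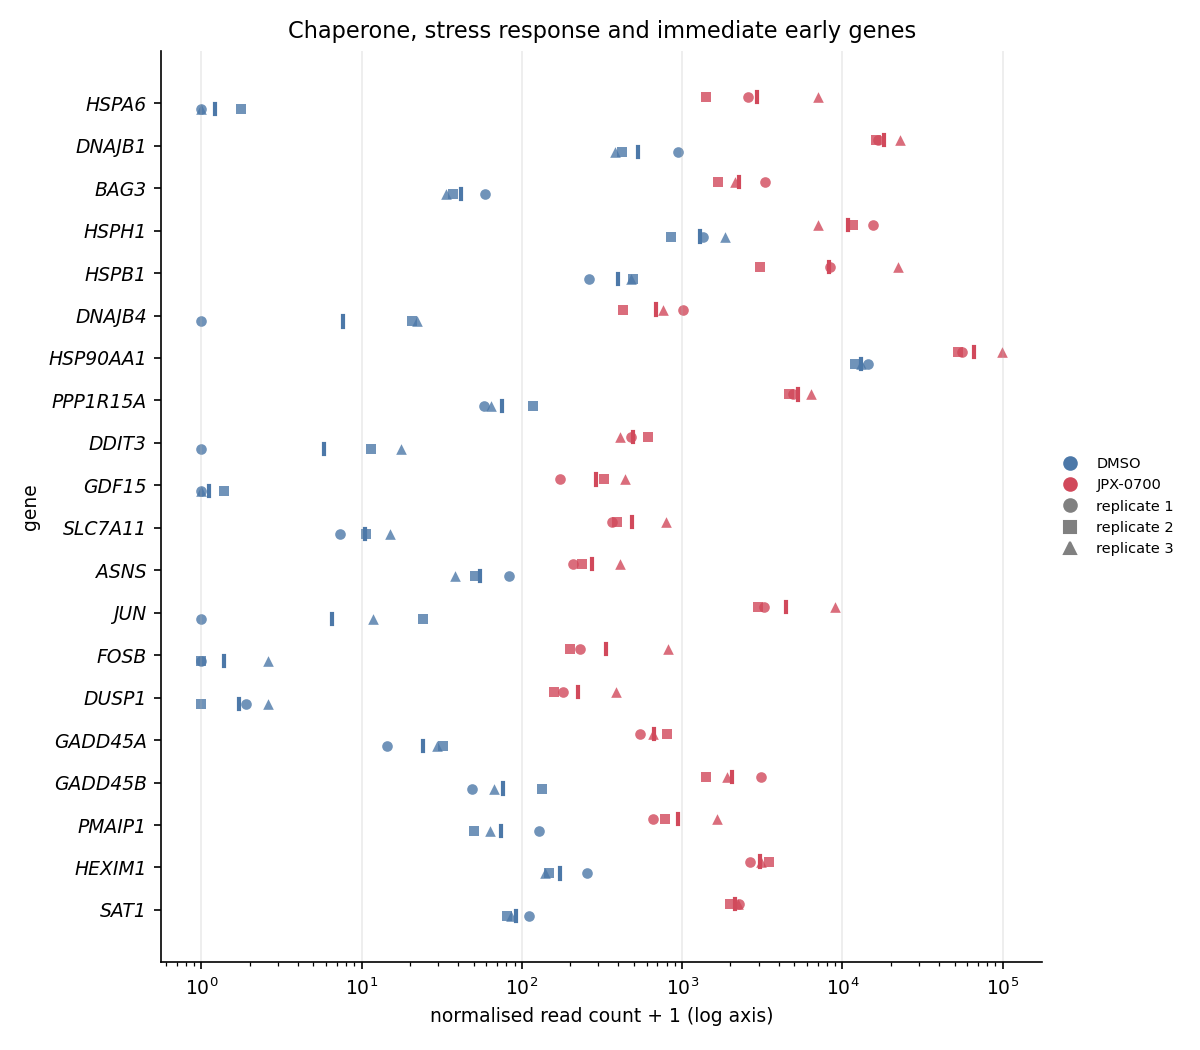
Normalised read count plus 1 (horizontal log axis) of 20 named genes that rose, in each DMSO (blue) and JPX-0700 (red) library, with symbols for replicates and bars for the mean of log2 values. In every gene all 3 JPX-0700 libraries lie to the right of all 3 DMSO libraries, as in all genes that rose.

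Of 13 ubiquitin and autophagy receptor genes 3 rose (background 5.47%) and 0 fell, with a median of 1.0. ZFAND2A, a stress-inducible proteasome-binding protein, had 27.8, 28.8 and 23.7 with DMSO and 438, 443 and 586 with JPX-0700 (4.13 ± 0.54, adjusted p = 7.91e-05). UBB, a polyubiquitin gene, had 1914, 1944 and 1860 against 3885, 6093 and 9860 (1.69 ± 0.40, adjusted p = 0.0171). No fit lacking a DMSO library or JPX-0700 replicate 3 called UBB (adjusted p = 0.054 to 0.0726). Among 35 proteasome subunits 1 rose, the ATPase PSMC1 (2.45 ± 0.60, adjusted p = 0.0193, and 0.122 without DMSO replicate 2, 0.0624 and 0.0549 without JPX-0700 replicates 2 and 3). The median of the proteasome list was -0.60, and its share of risers lay below the background of 5.47%. Of 18 TRiC and mitochondrial chaperones the mitochondrial HSPD1 rose (1.52 ± 0.42, adjusted p = 0.0424) and the TRiC subunit CCT7 fell (-1.74 ± 0.49, adjusted p = 0.0452), and neither call was firm. The HSPD1 call remained only without DMSO replicate 3, with adjusted p = 0.0518 to 0.211 in the other 5 fits that left out 1 library, and that of CCT7 remained only without JPX-0700 replicate 3, with 0.061 to 0.192 in the others.

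Of 19 regulators of the integrated stress response 6 rose (background 5.47%) and 0 fell, with a median of 1.73. In 2 of the 19 and 1 of the 6 risers the DMSO mean was under 5, so these passed the filter through the JPX-0700 libraries. The 2 phosphatase subunits that restore translation both rose, as did 1 of 7 transcription factors and 3 of 6 effectors, while 0 of the 4 kinases did. PPP1R15A, the inducible subunit, had 56.6, 116 and 63.0 with DMSO and 4922, 4618 and 6350 with JPX-0700 (6.12 ± 0.47, adjusted p = 1.47e-07). DDIT3, a transcription factor linked to cell death under stress, had 0, 10.4 and 16.7 against 479, 611 and 411 (6.40 ± 0.90, adjusted p = 0.000173), with 5.13 and 7.2 without DMSO replicates 1 and 3. DDIT4, an inhibitor of mTOR signalling, had 56.6, 20.3 and 8.61 against 429, 488 and 2156 (5.08 ± 0.73, adjusted p = 0.000228), with 5.75 and 4.45 without DMSO replicates 1 and 3 and 4.33 without JPX-0700 replicate 3. GDF15, a secreted stress cytokine, had 1 DMSO read and 281 JPX-0700 reads, a ratio of 1855 (counting interval 330 to 73523). ATF4 itself had 540 ± 267 (SD, n = 3) and 1272 ± 368 and did not pass (1.32 ± 0.46, adjusted p = 0.114).

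Of 21 genes for amino acid transport and synthesis 4 rose (background 5.47%) and 0 fell, and their median was 0.02. SLC7A11, the cystine transporter, had 6.29, 9.59 and 14 with DMSO and 364, 391 and 789 with JPX-0700 (5.53 ± 0.66, adjusted p = 3.38e-05). ALDH1L2, a mitochondrial folate enzyme, rose by 3.12 ± 0.70 (adjusted p = 0.0123), with 3.83 without JPX-0700 replicate 3. ASNS, which makes asparagine, had 82.6, 50.2 and 37.1 against 207, 235 and 411 (2.32 ± 0.58, adjusted p = 0.0231). SLC3A2, the partner chain of SLC7A11, had 191, 382 and 205 against 853, 507 and 1854 (1.91 ± 0.52, adjusted p = 0.0371). Apart from SLC7A11 each of these calls was lost in at least 1 fit that left out 1 library, which also tests with fewer libraries. Without DMSO replicate 2 the adjusted p was 0.088 for ASNS and 0.0608 for ALDH1L2, and without DMSO replicate 3 it was 0.087 for ASNS and 0.11 for SLC3A2. Without DMSO replicate 1 SLC3A2 had 0.163, in the fit that left out the 3 sparse libraries 0.0764, without JPX-0700 replicate 1 SLC3A2 had 0.0775 and ALDH1L2 0.068, and without JPX-0700 replicate 3 SLC3A2 had 0.0639. Of 15 aminoacyl-tRNA synthetases 1 rose (background 5.47%), IARS (2.29 ± 0.63, adjusted p = 0.0389), which lost its call without DMSO replicate 1 (1.62, adjusted p = 0.208), DMSO replicate 3 (0.0529) or either of JPX-0700 replicates 1 and 3 (0.0789 and 0.0865). Of 26 ER chaperones and unfolded protein response genes 0 passed in either direction by limma, 5 had an unadjusted p under 0.05, and voom called 1 lower. In that list HYOU1, an ER chaperone, had the smallest p (1.51 ± 0.55, adjusted p = 0.129), and the list's median was -0.12.

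ATF4 binds, with C/EBP partners, at elements that match TGATGNAA. These letters, on either strand, were in 3 of 8 promoters matched to risers of the integrated stress response and amino acid lists (ASNS, PPP1R15B and SLC3A2), in 5 of 24 of those that did not pass, in 1.69% of protein-coding genes tested and in 3.67% of all promoters. The ASNS window, chr7:97872428-97872517 on the minus strand, is printed with the match in capitals as the known example of such an element.
ASNS: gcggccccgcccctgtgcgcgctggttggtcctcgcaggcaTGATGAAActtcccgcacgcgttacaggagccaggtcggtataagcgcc
Here the match ends 60 bases before the annotated start, and in PPP1R15B it ends 219 bases before it.

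Immediate early genes, which respond within minutes to growth signals and stress, included the largest rise among protein-coding genes with at least 10 DMSO reads whose calls held in every fit without 1 library. JUN (chr1:58780791-58784047), a subunit of the AP-1 factor, had 0, 23.0 and 10.8 with DMSO and 3249, 2967 and 8951 with JPX-0700 (9.40 ± 0.86, adjusted p = 1.38e-06). Its difference was 8.04 and 10.33 without DMSO replicates 1 and 2. Of 22 AP-1 and immediate early genes 8 rose (background 5.47%) and 0 fell, with a median of 2.61. A DMSO mean under 5 was found in 6 of the 22 and 2 of the 8 risers, which so passed the filter through the JPX-0700 libraries. FOSB, a partner of JUN, had 3 DMSO reads and 395 JPX-0700 reads, a ratio of 869 (counting interval 295 to 4233), and its fitted difference of 7.92 was 7.28 without JPX-0700 replicate 3. IER5, a stress-responsive activator of HSF1, had 436, 173 and 59.8 against 1871, 4059 and 3588 (4.18 ± 0.58, adjusted p = 0.000159), with 4.87 and 3.45 without DMSO replicates 1 and 3. Its relative IER5L had 22.4, 4.22 and 5.38 against 359, 559 and 214 (5.25 ± 0.72, adjusted p = 0.000124, and 5.93 without DMSO replicate 1). The other risers were FOS (3.50), EGR1 (2.30), IER2 (2.1) and NR4A2 (4.99), and the last lost its call without DMSO replicate 1 (4.10, adjusted p = 0.0651) and had 5.66 and 3.85 without JPX-0700 replicates 1 and 3. Of 11 feedback genes of the MAP kinase pathway 1 rose (background 5.47%), the phosphatase DUSP1, with 4 and 220 reads and a ratio of 363 (140 to 1344). The AP-1 motif TGANTCA was in 3.66% of promoters of protein-coding genes that rose and in 4.11% of those tested.

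Of 19 NF-kB subunits, inhibitors and targets 5 rose (background 5.47%) and 0 fell, with a median of 1.92. A DMSO mean under 5 was found in 4 of the 19 and 3 of the 5 risers. These passed the filter through the JPX-0700 libraries, so the count and median partly follow from the filter. NFKBIA, the inhibitor that NF-kB itself induces, had 229, 217 and 166 with DMSO and 664, 671 and 1012 with JPX-0700 (1.92 ± 0.43, adjusted p = 0.0121). On the scale of equal read totals the NFKBIA call was lost (1.19, adjusted p = 0.0837). NFKBIZ, a nuclear cofactor of NF-kB, had 0.898, 3.45 and 2.15 against 207, 82.0 and 183 (5.62 ± 0.96, adjusted p = 0.00117). CXCL8, a neutrophil chemokine, had 9 DMSO reads and 287 JPX-0700 reads, and BIRC3, an inhibitor of apoptosis, had 6 and 93. The fitted difference of CXCL8, 6.28, was 6.99 and 5.23 without JPX-0700 replicates 2 and 3. The fifth was NFKB2, which did not pass with DMSO replicate 1 or 3 left out (adjusted p = 0.0717 and 0.0576) and whose difference of 3.97 was 3.27 without JPX-0700 replicate 3.

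Of 26 genes listed as p53 targets 7 rose (background 5.47%) and 0 fell, with a median of 1.03, by role 4 of 14 for arrest and repair, 1 of 3 for feedback and 2 of 9 for death. GADD45A, a stress sensor of the DNA damage response, had 13.5, 31.4 and 28.5 with DMSO and 548, 805 and 656 with JPX-0700 (4.79 ± 0.61, adjusted p = 6.17e-05). GADD45B, its relative, had 47.6, 132 and 66.2 against 3102, 1416 and 1915 (4.75 ± 0.48, adjusted p = 5.45e-06). PLK2, a kinase of centriole duplication, had 10.8, 26.8 and 32.3 against 604, 470 and 272 (4.27 ± 0.58, adjusted p = 0.000117). No value of one group lay within the range of the other in these 3 genes, as in every called gene. PMAIP1, a BH3-only protein that disables MCL1, had 126, 49.1 and 61.9 against 659, 775 and 1648 (3.68 ± 0.52, adjusted p = 0.000194). The remaining risers were BTG1 (3.42), the p53 ligase MDM2 (3.25) and the BH3-only gene BBC3 (2.42), and BBC3 did not pass in fits lacking DMSO replicate 1, 2 or 3 (adjusted p = 0.229, 0.054 and 0.0632) or JPX-0700 replicate 3 (0.0955), with 1.78 and 1.79 without the first and the last. CDKN1A, the cell cycle inhibitor, had a log2 difference of 1.0 ± 0.55 and did not pass (adjusted p = 0.322).

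Of 29 BCL2 family, caspase and RIP kinase genes 4 rose (background 5.47%) and 0 fell, and their median was -0.54. Besides PMAIP1 and BBC3 these were MLKL, the effector of necroptosis, and the inflammatory caspase CASP4. MLKL had 0, 16.1 and 22.6 with DMSO and 401, 231 and 636 with JPX-0700 (5.72 ± 1.0, adjusted p = 0.00157), with 4.28, 6.33 and 6.56 without DMSO replicates 1, 2 and 3. CASP4 had 30.5, 78.2 and 141 against 346, 224 and 1567 (2.81 ± 0.73, adjusted p = 0.0285), and in fits lacking DMSO replicate 1, DMSO replicate 2 or JPX-0700 replicate 3 CASP4 had adjusted p = 0.163, 0.0818 and 0.0705, with 2.23 without the first and 1.98 without the last. None of the 7 survival genes passed, and MCL1, the survival protein that PMAIP1 binds, had -0.55 ± 0.58 (adjusted p = 0.615).

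A set of genes outside these stress lists rose from very few DMSO reads. RGS2, a brake on G protein signalling, had 5 DMSO reads and 575 JPX-0700 reads (ratio 759, counting interval 323 to 2347), the kinase SGK1 had 1 and 222 (1465, 260 to 58140) and RGS1 had 3 and 236 (519, 176 to 2536). CCDC80, an extracellular matrix protein, had 2 and 499 reads. HMOX1, which breaks down haem, had 4 and 253 (418, 161 to 1544), and it was the only riser among 22 haem, iron and NRF2 target genes. JPX-0700 replicate 3 weighed on several of these fitted values: without it RGS1 had 6.01 in place of 6.87, CCDC80 7.39 in place of 8.17 and HMOX1 7.83 in place of 7.08. Without JPX-0700 replicate 2 HMOX1 had 6.38. In all, 157 of the 651 genes that rose had under 10 DMSO reads and 42 had none, and the fitted differences of such genes are no bounds.

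HES1, a repressor downstream of Notch, had 0, 2.30 and 3.77 with DMSO and 1963, 183 and 1981 with JPX-0700 (8.48 ± 0.97, adjusted p = 2.24e-05), with 7.82 without DMSO replicate 1 and 9.62 and 7.90 without JPX-0700 replicates 2 and 3. ID2, an inhibitor of helix-loop-helix factors, had 149, 81.3 and 191 against 2263, 842 and 2562 (3.67 ± 0.50, adjusted p = 0.000125). SAT1, the enzyme that starts polyamine breakdown, had 110, 80.1 and 84.0 against 2249, 1986 and 2220 (4.55 ± 0.43, adjusted p = 1.73e-06). Its 3 treated values lay close together, and all stood far above the controls. MAT2A, which makes the methyl donor S-adenosylmethionine, had 0, 11.9 and 17.2 against 180, 242 and 295 (5.25 ± 0.94, adjusted p = 0.00186), with 3.94 and 6.03 without DMSO replicates 1 and 3. HEXIM1, which holds the elongation kinase P-TEFb inactive on the 7SK RNA, had 254, 147 and 138 against 2664, 3481 and 3112 (4.14 ± 0.45, adjusted p = 1.15e-05). LARP7, the 7SK-binding protein, rose by 1.65 ± 0.44 (adjusted p = 0.0332), and LARP7 did not pass in fits lacking DMSO replicate 1 or 2 (0.145 and 0.157), either of JPX-0700 replicates 1 and 3 (0.0787 and 0.0587) or the 3 sparse libraries (0.0663).

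Of 21 listed nuclear noncoding RNAs tested 6 rose and 0 fell, with a median of 1.56, beside 5.47% risers over all genes and 10.4% over long noncoding RNAs. MALAT1 (chr11:65497738-65506516), a transcript kept in nuclear speckles, had 13280, 4266 and 9502 with DMSO and 267590, 220136 and 186547 with JPX-0700 (4.77 ± 0.55, adjusted p = 2.24e-05). It took 0.387% ± 0.191 (SD, n = 3) of reads with DMSO and 6.03% ± 2.18 with JPX-0700 (two-sided exact permutation test, p = 0.1). NEAT1, the scaffold of paraspeckles, had 493, 427 and 257 against 9991, 9179 and 21501 (5.05 ± 0.43, adjusted p = 6.42e-07). KCNQ1OT1, an imprinted antisense RNA, had 70.9, 34.1 and 60.8 against 2678, 1819 and 2473 (5.41 ± 0.45, adjusted p = 3.78e-07). SNHG12, a host of small nucleolar RNAs, rose by 3.59 ± 0.43 (adjusted p = 3.38e-05). GAS5 (2.05) and SNHG5 (1.94) rose too, and both lost their calls without DMSO replicate 3 (adjusted p = 0.0784 and 0.078). GAS5 also lost its call without DMSO replicate 1 (0.161), JPX-0700 replicate 3 (1.44, 0.0582) or the 3 sparse libraries (0.0758), and SNHG5 without JPX-0700 replicate 1 (0.0532). Each of these RNAs lay wholly above its DMSO values in all JPX-0700 libraries, as did every gene that rose.

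Structured RNAs act in splicing, RNA modification, transport and elongation, and most of them carry no poly(A) tail. Of 255 tested 150 rose (58.8%, background 5.47%), with a median of 5.59. Many passed the filter only through the JPX-0700 libraries, as given below, so this count and median partly follow from the filter. Structured RNAs, tested or not, took 0.0992%, 0.0438% and 0.264% of reads in the DMSO libraries. In the JPX-0700 libraries they took 9.02%, 8.60% and 10.3% (two-sided exact permutation test, p = 0.1, the smallest possible). Over the same libraries protein-coding genes took 98.2% ± 0.197 (SD, n = 3) and 81.4% ± 1.33 of reads (exact p = 0.1). Ribosomal protein genes took 17.6% ± 3.04 and 18.4% ± 3.86 (exact p = 0.7). The part that RNA quality or library preparation has in these shares was not tested, since the sources used here give no value for either.

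**Figure D3:**
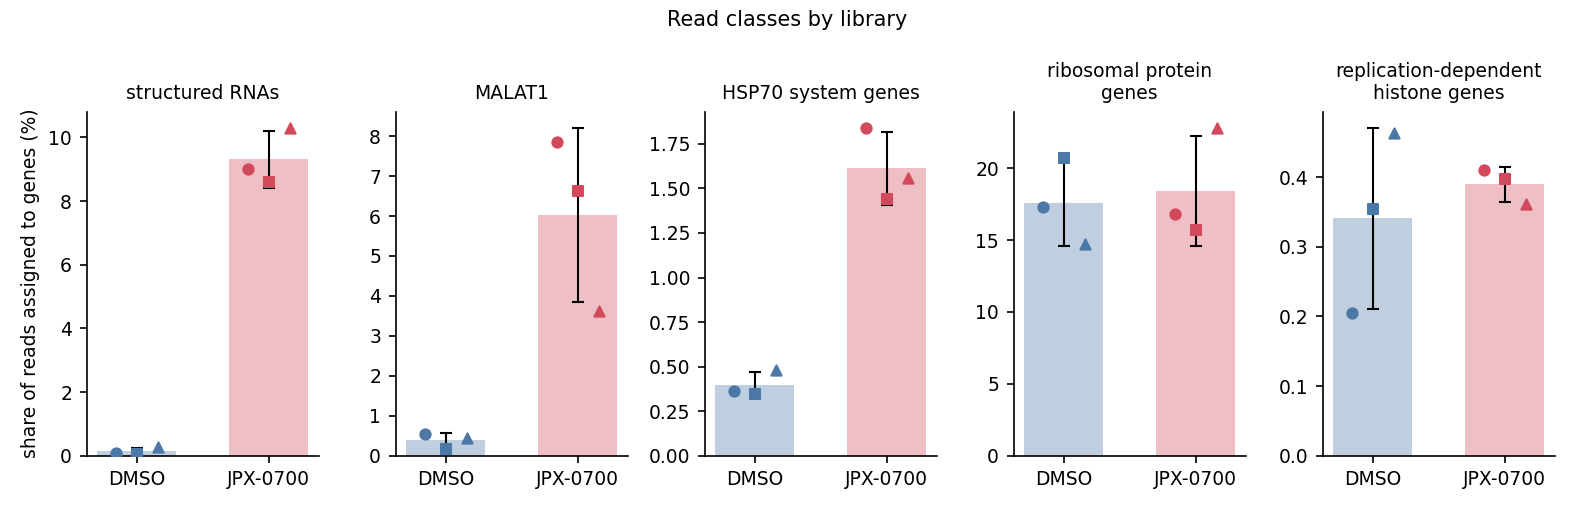
Share of reads on genes (vertical axis, percent, a separate scale per panel) taken by 5 classes in the DMSO (blue) and JPX-0700 (red) libraries; bars are means, whiskers SD, points single libraries. Structured RNAs, MALAT1 and HSP70 system genes are higher in all 3 JPX-0700 libraries, and the other classes overlap.

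Of 141 C/D box small nucleolar RNAs, which guide methylation of ribosomal RNA, 83 rose with a median of 5.77 over the 141, and of 61 H/ACA box RNAs, which guide pseudouridylation, 29 rose with a median of 4.70. Of 21 small nuclear RNAs, a class that holds the spliceosomal RNAs and RN7SK, 17 rose, and 17 of the 21 and 13 of the risers had a DMSO mean under 5. Among the rest 4 of 4 Y RNAs, 2 of 4 vault RNAs, 10 of 18 RNAs with no narrower class and the RNA parts of RNase P, RNase MRP and telomerase rose. Only 203 of 430 small nucleolar RNA genes in the table were tested, and 175 of the 203 had a DMSO mean under 5 and so passed through the JPX-0700 libraries, for which reason these counts describe the libraries and support nothing. The number of small nucleolar RNAs that rose ran from 100 without DMSO replicate 2 to 151 without JPX-0700 replicate 3. With the 49 that had no DMSO read set at the bound of 3 reads over the group, the median of the 203 was 5.85 in place of 5.39.

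RN7SK (chr6:52995620-52995951), the RNA that holds HEXIM1 and P-TEFb, had 3.59, 11.5 and 26.9 with DMSO and 49293, 26692 and 76876 with JPX-0700 (11.96 ± 0.56, adjusted p = 8.79e-10). RNY5, a Y RNA bound by the Ro protein, had 3.59, 4.22 and 5.92 against 25024, 7815 and 103173 (12.27 ± 0.82, adjusted p = 3.03e-08). RN7SL1, the RNA of the signal recognition particle, had 18.0, 74.4 and 26.9 against 9047, 45259 and 26025 (9.33 ± 0.81, adjusted p = 7.6e-07). All 3 are transcribed by RNA polymerase III and have many near-identical copies in the genome, so the division of their reads between copies is uncertain. SNORD3A, the U3 RNA of ribosome assembly, had 0.898, 12.3 and 8.61 against 12849, 8464 and 40992 (11.37 ± 0.66, adjusted p = 6.18e-09). RNU4ATAC, of the minor spliceosome, had 510, 259 and 1981 against 28407, 12720 and 20014 (4.91 ± 0.58, adjusted p = 2.78e-05). RNU12, of the same spliceosome, had no read with DMSO and 1544 with JPX-0700, at least 3397-fold higher from a floor of 3 reads over the DMSO group. RNU5A-1 and RNU5B-1, of the major spliceosome, had 1 and 2 DMSO reads and 2774 and 3363 JPX-0700 reads. Single libraries moved several of these differences without ending a call. Without DMSO replicate 1 RN7SK had 11.28 and SNORD3A 10.51, without DMSO replicate 2 RNU4ATAC had 4.26, and without DMSO replicate 3 RN7SK had 12.59 and RNU4ATAC 5.73. RN7SL1 had 9.97 without JPX-0700 replicate 1. Without JPX-0700 replicate 2 RNY5 had 13.18, and without JPX-0700 replicate 3 RNY5 had 11.31 and SNORD3A 10.71.

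Most small nucleolar RNAs are cut from introns of host genes, and for those the 2 products of a host could be set side by side here. SNORD83A is a C/D box RNA that rose from 6 DMSO reads. Its GENCODE v29 sequence (GRCh38), chr22:39315213-39315307 on the minus strand, is printed 5′ to 3′ with T for U and with the C box (TGATGA) and D box (CTGA) letters in capitals, to show the letters that define the class.
SNORD83A: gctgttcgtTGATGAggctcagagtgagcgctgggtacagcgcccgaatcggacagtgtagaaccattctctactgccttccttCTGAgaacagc
SNORD46 had 5.39, 4.22 and 5.38 with DMSO and 9655, 27683 and 26719 with JPX-0700 (11.66 ± 0.48, adjusted p = 2.49e-10). SNORD83A had 0, 1.53 and 1.08 against 2963, 4118 and 5805, from 6 and 3837 reads. SNORD14E, within HSPA8, had 2 and 3809 reads (ratio 12572, counting interval 3478 to 103848) beside the 1.41 of HSPA8. SNORD50A, within SNHG5, had 320, 74.0 and 1260 against 41666, 11371 and 21681 (6.12 ± 0.73, adjusted p = 3.23e-05) beside the 1.94 of SNHG5, with 5.10 and 7.13 without DMSO replicates 2 and 3.

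Over all such pairs, 127 small nucleolar RNAs lay within exactly 1 tested protein-coding gene, and 74 of them rose with a median of 5.58 over the 127. Of the 77 host genes 4 rose and 0 fell, with a median of 0.14. Of the 52 hosts of RNAs that rose, 3 rose and 0 fell, with a median of 0.18. Among 13 long noncoding host genes 4 rose, with a median of 0.87. Of the 203 small nucleolar RNAs tested, 175 passed the filter through the JPX-0700 libraries. Their counts and medians beside those of the hosts therefore partly follow from the filter and support nothing. The sources used here state neither the counting strand nor the handling of reads that match several places, so reads of an intronic RNA and of its host cannot always be told apart, as in RPL23A, whose span holds 4 such RNAs. RPL23A had 1421, 1652 and 2205 with DMSO and 7272, 9421 and 21740 with JPX-0700 (2.72 ± 0.45, adjusted p = 0.000898).

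Of 82 cytosolic ribosomal protein genes tested 4 rose, a share near the background of 5.47%, and 0 fell, with a median of 0.68, and on the scale of equal read totals the median was -0.05. RPL41 had 1949, 3692 and 5854 with DMSO and 23158, 11277 and 35051 with JPX-0700 (2.59 ± 0.49, adjusted p = 0.00304). In the fit that left out the 3 sparse libraries its adjusted p was 0.0587. RPS25 rose by 1.94 ± 0.39 (adjusted p = 0.00527) and RPL38 by 1.63 ± 0.41 (adjusted p = 0.0224), and the RPL38 call was lost without DMSO replicate 1 (0.165), JPX-0700 replicate 1 or 3 (0.0896 and 0.0728) or the 3 sparse libraries (0.11). EEF1A1, the elongation factor that brings tRNA to the ribosome and a gene with many processed copies, had 282, 341 and 1202 against 2977, 2106 and 8420 (2.94 ± 0.57, adjusted p = 0.00376). The EEF1A1 difference became 3.59 with DMSO replicate 3 left out and 2.36 with JPX-0700 replicate 3 left out. BAZ2B, a chromatin reader, had 1684, 888 and 1716 against 5332, 4550 and 6408 (1.97 ± 0.39, adjusted p = 0.00481). Scaling to equal read totals ended the calls of BAZ2B (1.24, adjusted p = 0.0572) and RPS25 (1.21, 0.092).

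Replication-dependent histone genes, whose messages normally end in a stem-loop without poly(A), lay mostly above 0. Of 50 tested 17 rose (background 5.47%) and 0 fell, with a median of 3.45 and 47 above 0. A DMSO mean under 5 was found in 30 of the 50 and 13 of the 17 risers. These passed the filter through the JPX-0700 libraries, so the counts describe the libraries and support nothing. HIST1H2AG had 0, 4.22 and 4.85 with DMSO and 433, 470 and 748 with JPX-0700 (7.42 ± 0.77, adjusted p = 6.94e-06), and 6.60 without DMSO replicate 1. HIST1H4B had 0, 1.53 and 4.31 against 230, 298 and 511 (7.11 ± 0.85, adjusted p = 3.25e-05), and 6.49 and 7.69 without DMSO replicates 1 and 3. HIST1H3A had 0, 2.68 and 3.77 against 249, 589 and 175 (6.83 ± 0.92, adjusted p = 0.000108), and 6.14 without DMSO replicate 1. HIST1H4A had no DMSO read and 169 JPX-0700 reads, at least 372-fold higher. HIST1H4C, which carried 35282 DMSO reads, had 5684 ± 2401 (SD, n = 3) and 5678 ± 3296 and did not pass (-0.05 ± 0.46, adjusted p = 0.964). The 64 genes together took 0.341% ± 0.13 and 0.390% ± 0.0255 of reads (two-sided exact permutation test, p = 0.7). The number that rose ran from 12 without DMSO replicate 1 to 23 without JPX-0700 replicate 3, and was 39 in the fit that left out the 3 sparse libraries. Of 9 replication-independent histone genes, whose messages are polyadenylated, 0 passed in either direction by limma, 2 had an unadjusted p under 0.05, and voom called 1 lower.

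The 60 genes that fell were led, among calls that held in each fit without 1 library, by COLGALT1 and MCM2. COLGALT1 (chr19:17555649-17583157), which adds galactose to collagen, had 1949, 2995 and 779 with DMSO and 101, 265 and 91.7 with JPX-0700 (-3.61 ± 0.64, adjusted p = 0.00183). MCM2 (chr3:127598411-127622436), a subunit of the replicative helicase, had 618, 569 and 341 against 59.9, 44.7 and 47.2 (-3.27 ± 0.64, adjusted p = 0.00424). In both the highest treated value lay below the lowest control value, as in all 60. Of the 60 calls 6 remained without DMSO replicate 1, 5 without DMSO replicate 2, 29 without DMSO replicate 3, and 32, 46 and 46 without JPX-0700 replicates 1, 2 and 3. In the fit that left out the 3 sparse libraries 52 of the 60 fell.

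DNA replication genes lay lower. Of 45 tested 0 rose and 5 fell (background 0.504%), 35 were below 0, and the median was -1.0, against 0.11 over all genes. By role 1 of 17 helicase and loading genes, 2 of 21 polymerase and clamp genes and 2 of 7 nucleotide supply genes fell. RPA1, which coats single-stranded DNA, had 245, 505 and 205 with DMSO and 13.8, 52.2 and 16.7 with JPX-0700 (-3.61 ± 0.84, adjusted p = 0.0148). FEN1, the flap endonuclease, had 725, 777 and 316 against 92.2, 108 and 108 (-2.44 ± 0.62, adjusted p = 0.0263). RRM1, the large subunit of ribonucleotide reductase, had 1606, 747 and 881 against 323, 276 and 186 (-1.99 ± 0.48, adjusted p = 0.0187). RRM2, the small subunit, had 502, 787 and 581 against 106, 224 and 178 (-1.92 ± 0.54, adjusted p = 0.0449). Every treated value in these genes lay below every control value, as it did in MCM2 and in all genes that fell. Without DMSO replicate 1 the adjusted p was 0.0642 for RPA1 (-3.74), 0.144 for FEN1, 0.139 for RRM1 and 0.109 for RRM2. Without DMSO replicate 2 it was 0.147 for RPA1, 0.159 for FEN1 and 0.216 for RRM2, without DMSO replicate 3 0.108 for RRM2, and without JPX-0700 replicate 1 0.0703 for FEN1 and 0.134 for RRM2. RPA1 had -4.19 without JPX-0700 replicate 2. The number that fell was 1 in the fit lacking DMSO replicate 1, 9 without JPX-0700 replicate 3 and 12 in the fit that left out the 3 sparse libraries.

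Of 41 G2/M and mitosis genes 0 passed in either direction by limma, 7 had an unadjusted p under 0.05, and voom called 1 lower. Of the 41, 30 were below 0 and the median was -0.72, and TPX2, a spindle assembly factor, had the smallest p (-1.79 ± 0.63, adjusted p = 0.115). Of 21 G1 cyclins, kinases and inhibitors 1 rose, a share near the background of 5.47%. It was cyclin E2 (CCNE2), with 35, 35.7 and 143 against 286, 321 and 1064 (3.01 ± 0.75, adjusted p = 0.023). CCNE2 did not pass when DMSO replicate 1 or 2 or JPX-0700 replicate 3 was left out (adjusted p = 0.118, 0.114 and 0.073, and 2.4 in the last case), and its difference was 3.67 without DMSO replicate 3. Of 13 MYC network genes 1 rose (background 5.47%), the repressor MNT (2.69 ± 0.72, adjusted p = 0.034), and its call remained only without JPX-0700 replicate 2, with 0.0596 to 0.139 in the other 5 fits that left out 1 library. MYC had 138 ± 55.1 (SD, n = 3) and 41.3 ± 35.2 and did not pass (-2.11 ± 0.90, adjusted p = 0.197).

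Adhesion genes, chemokine receptors and tetraspanins, through which leukaemia cells bind vessels and tissue, held the lowest median of the gene lists, -1.63 over 28 genes. Of these 6 fell (background 0.504%) and 1 rose (background 5.47%). ITGB2, the chain shared by the leukocyte integrins, had 3040, 1755 and 571 with DMSO and 217, 447 and 19.5 with JPX-0700 (-3.53 ± 0.86, adjusted p = 0.0201). Its partner ITGAL had 1253, 2198 and 2043 against 290, 805 and 200 (-2.30 ± 0.52, adjusted p = 0.0126). ITGB7, another integrin chain, had 225, 184 and 174 against 27.7, 59.6 and 5.56 (-3.11 ± 0.85, adjusted p = 0.0389). In each of these integrin genes the groups did not overlap, as in every called gene, and JPX-0700 replicate 3 was the lowest library. SELPLG, the ligand of the selectins, had 363, 377 and 171 against 23.0, 59.6 and 22.2 (-3.15 ± 0.89, adjusted p = 0.0457). CCR2, the receptor that calls monocytes to inflamed tissue, had 609, 374 and 276 against 69.1, 41.0 and 0 (-4.80 ± 1.28, adjusted p = 0.0332). The tetraspanin CD81 had 887, 1613 and 1273 against 217, 253 and 345 (-2.19 ± 0.51, adjusted p = 0.015). None of the adhesion calls held in every fit without 1 library. Such a fit also tests with fewer libraries, and of all 60 genes that fell only 6 and 5 calls remained without DMSO replicates 1 and 2. Without DMSO replicate 2 none of the 7 passed, and among the 6 that fell the adjusted p was 0.088 for ITGB2, 0.0704 for ITGAL, 0.158 for ITGB7, 0.245 for SELPLG, 0.123 for CCR2 and 0.0979 for CD81. Without DMSO replicate 1 it was 0.139 for ITGB2, 0.17 for ITGB7, 0.215 for SELPLG and 0.167 for CCR2. Without DMSO replicate 3 ITGB7 had 0.11, SELPLG 0.0825, CCR2 0.0695 and CD81 0.052. Without JPX-0700 replicate 1 ITGB7 had 0.0595, SELPLG 0.106 and CD81 0.0559, and without JPX-0700 replicate 3 ITGB2 had 0.0665, SELPLG 0.0635 and CCR2 0.0583. In the fit that left out the 3 sparse libraries ITGB2 had -1.68 (0.0808) and SELPLG 0.0559. Without JPX-0700 replicate 3 the log2 differences of ITGB2, ITGB7 and CCR2 were -2.22, -2.22 and -2.88, and with JPX-0700 replicate 2 left out those of ITGB2, ITGAL, ITGB7 and CCR2 were -4.44, -2.88, -3.83 and -5.57. ITGB2 had -4.20 without DMSO replicate 3, and CCR2 had -5.94 without JPX-0700 replicate 1.

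SRGN, the proteoglycan core of secretory granules, had 14856, 15983 and 14713 with DMSO and 3710, 2922 and 4077 with JPX-0700 (-2.1 ± 0.48, adjusted p = 0.0136). Both groups were narrow and lay far apart, although SRGN did not pass with DMSO replicate 1 left out (adjusted p = 0.0565) and without JPX-0700 replicate 3 (0.0579). It was the only 1 of 11 granule genes tested to pass, and their median was -0.91. Listed granule genes below the filter were not tested. Of these MPO had 61 DMSO reads and 0 JPX-0700 reads, PRTN3 4 and 0, AZU1 2 and 0, CFD 5 and 3, and ELANE none. Of 20 monocyte and macrophage genes tested only ITGB2 passed. Below the filter in that list, ITGAX had 33 and 3 reads and FPR1 24 and 0, while CD163 had 0 and 7 and C5AR1 0 and 3. These counts do not cover such genes. Of 35 lysosome genes 2 fell (background 0.504%) and 30 were below 0, with a median of -1.01. GRN, progranulin, had 1548, 1594 and 1276 against 369, 406 and 314 (-2.02 ± 0.49, adjusted p = 0.0183), and PSAP, the saposin precursor, had 929, 653 and 341 against 36.9, 209 and 80.6 (-2.78 ± 0.67, adjusted p = 0.019). With DMSO replicate 1 or 2 left out GRN had 0.0826 and 0.0851 and PSAP 0.132 and 0.0937. With JPX-0700 replicate 1 or 3 left out PSAP had 0.0809 (-2.18) and 0.0505, and in the fit that left out the 3 sparse libraries 0.0674. PSAP had -3.41 without JPX-0700 replicate 2.

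**Figure D4:**
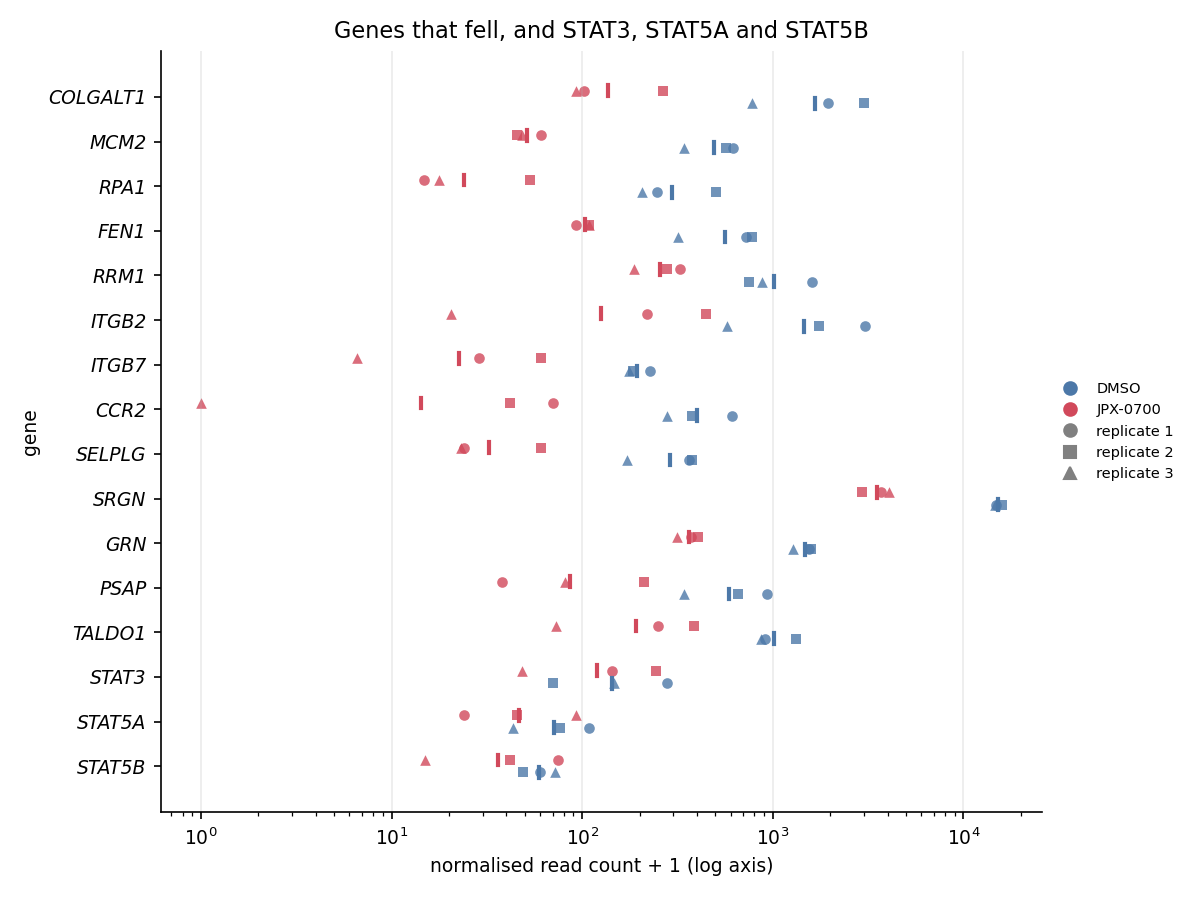
Normalised read count plus 1 (horizontal log axis) of 13 named genes that fell and of STAT3, STAT5A and STAT5B, in each DMSO (blue) and JPX-0700 (red) library, with symbols for replicates and bars for the mean of log2 values. The groups are apart in the 13 genes, as in all called genes, and overlap in the 3 STAT genes.

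Metabolic genes were mostly below 0, with few calls. Of 23 glycolysis and pentose phosphate genes 20 were below 0, 1 fell and the median was -0.92. PGAM1 and PFKM, with 36 and 20 DMSO reads and 1 and 3 JPX-0700 reads, did not reach the filter and were not tested. The gene that fell was TALDO1, transaldolase, with 909, 1321 and 867 with DMSO and 249, 384 and 72.3 with JPX-0700 (-2.4 ± 0.57, adjusted p = 0.0162). Its adjusted p was 0.0573 and 0.0937 without DMSO replicates 1 and 2, and its difference was -1.71 without JPX-0700 replicate 3. Of 29 sterol and fatty acid synthesis genes 25 were below 0 and 0 passed by limma or voom (5 at an unadjusted p under 0.05), with a median of -1.05, and FDFT1, squalene synthase, had the smallest p (-1.59 ± 0.55, adjusted p = 0.106). Of 77 nuclear oxidative phosphorylation genes 2 fell, the ATP synthase subunits ATP5A1 (-1.94 ± 0.54, adjusted p = 0.0417) and ATP5O (-1.66 ± 0.47, adjusted p = 0.044), and both lost their calls without DMSO replicate 1 (0.137 and 0.245) or 2 (0.191 and 0.152) or JPX-0700 replicate 1 (0.0867 and 0.115) or 3 (0.0842 and 0.0621). ATP5A1 also lost its call without DMSO replicate 3 (0.0617), and ATP5O in the fit that left out the 3 sparse libraries (0.08). Outside the lists, and chosen after their values were seen, the genes that fell included the mitochondrial dehydrogenases IDH2 (-2.4 ± 0.57, adjusted p = 0.0164) and MDH2 (-1.84 ± 0.46, adjusted p = 0.0235) and the peroxide-splitting catalase gene CAT (-3.25 ± 0.75, adjusted p = 0.0143). CAT had 627, 744 and 767 with DMSO and 189, 123 and 16.7 with JPX-0700. Without DMSO replicate 1 the adjusted p of IDH2, MDH2 and CAT was 0.0756, 0.139 and 0.0556, and without DMSO replicate 2 it was 0.088, 0.117 and 0.0671. MDH2 had 0.0768 without JPX-0700 replicate 1, where CAT had -3.92, and without JPX-0700 replicate 3 IDH2 had -1.77 and CAT -2.21. PIK3CD, the leukocyte PI3 kinase, had 1025, 831 and 290 against 92.2, 123 and 66.7 (-2.77 ± 0.61, adjusted p = 0.0102, and 0.0839 and 0.0737 without DMSO replicates 1 and 2).

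The remaining lists held few calls, beside backgrounds of 5.47% that rose and 0.504% that fell. Most of these calls were lost in at least 1 fit that left out 1 library. Of 26 interferon response genes XAF1 (2.45) and TRIM22 (2.64) rose. XAF1 did not pass in fits lacking DMSO replicate 1 or 2 (adjusted p = 0.0826 and 0.0797) or JPX-0700 replicate 1 (0.0525), and TRIM22 without DMSO replicate 2 or 3 (0.14 and 0.0657) or either of JPX-0700 replicates 1 and 3 (0.0522 and 0.0603, with 1.94 without the last). Of 14 hypoxia genes the stress genes VEGFA and DDIT4 described above and the collagen hydroxylase P4HA1 (1.80) rose, with a median of 0.51, and P4HA1 lost its call without any 1 DMSO library or JPX-0700 replicate 1 (adjusted p = 0.084 to 0.123). Of 16 HOXA and KMT2A fusion target genes, a set tied to the fusion this line carries, 0 passed by limma or voom and 3 had an unadjusted p under 0.05, with MEF2C at the smallest p (1.45 ± 0.45, adjusted p = 0.0722). Of 24 splicing core proteins 0 passed by limma or voom (1 at an unadjusted p under 0.05), and of 10 MHC class I, class II and antigen presentation genes 0 passed by limma (1 at an unadjusted p under 0.05) while voom called 1 higher. Of 37 ribosome biogenesis genes WDR74 rose (2.35) and lost its call without any 1 DMSO library or JPX-0700 replicate 3 (adjusted p = 0.0525 to 0.169, with 1.75 without the last). Of 73 mitochondrial ribosomal protein genes MRPS27 fell (-2.77) and lost its call without any 1 DMSO library or JPX-0700 replicate 1 (0.0509 to 0.251). Of 14 RNA exosome genes MPHOSPH6 rose (1.71), and its call remained only without JPX-0700 replicate 1 (0.0703 to 0.206 in the others). Of 360 ZNF zinc finger genes 7 rose, 0 of them without DMSO replicate 2 and 48 in the fit that left out the 3 sparse libraries, beside a background of 18.6% there.

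**Figure D5:**
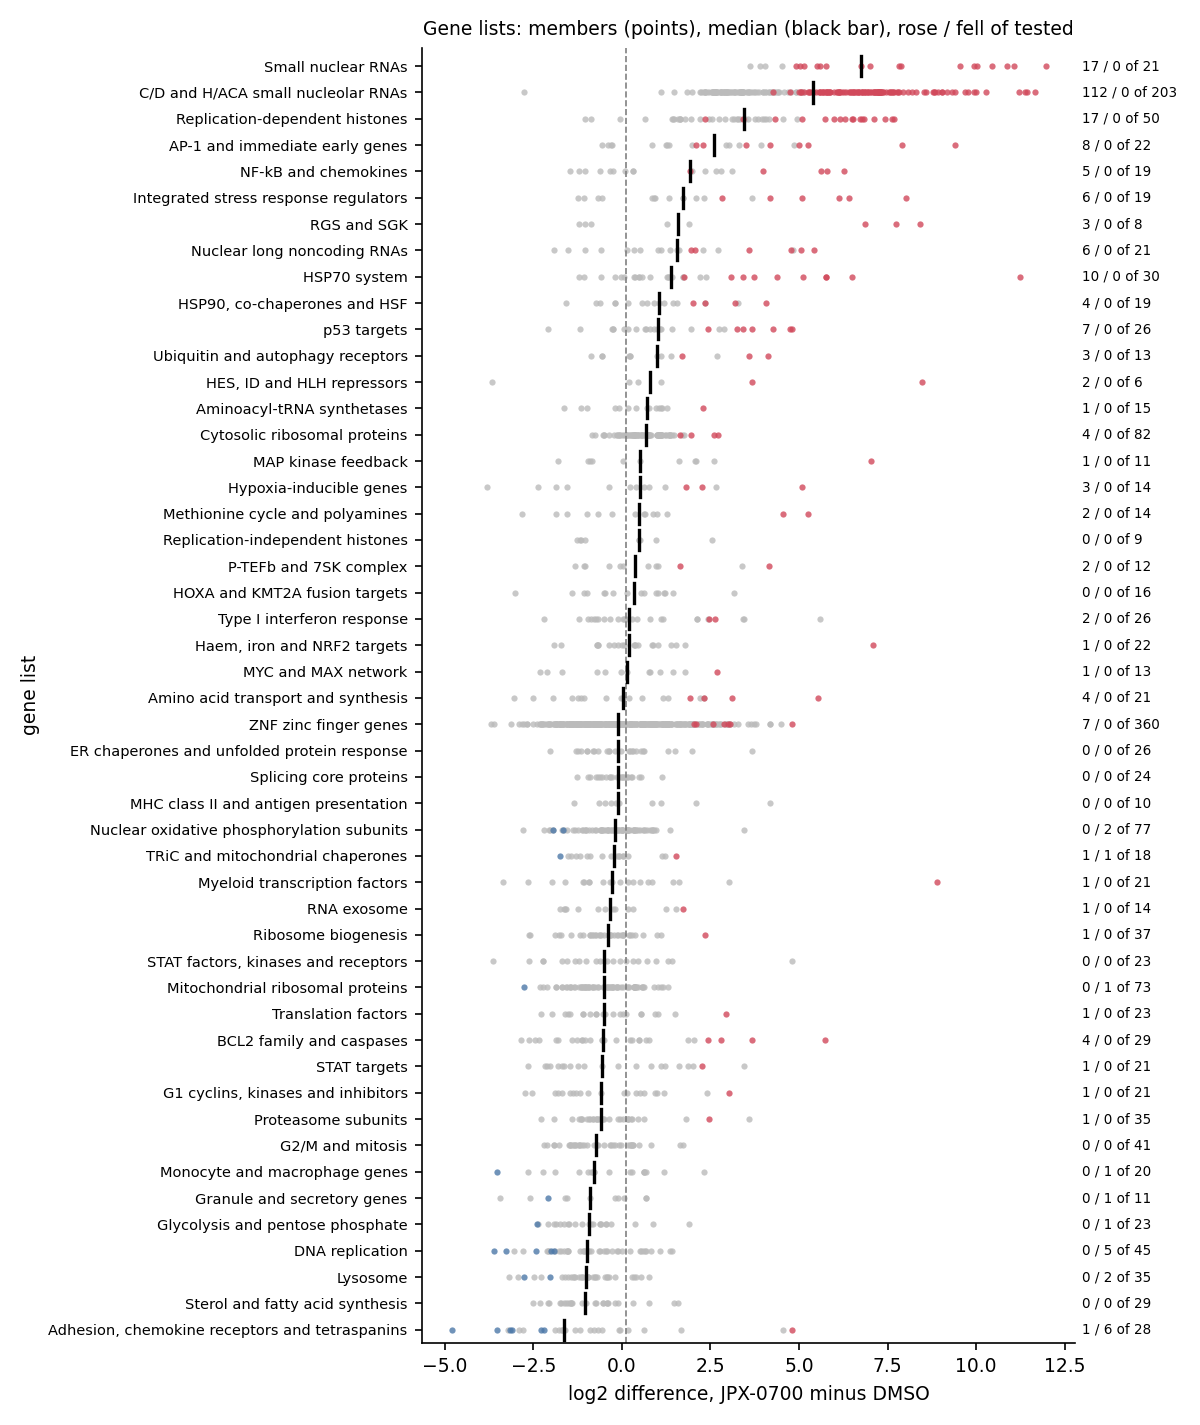
Log2 difference between JPX-0700 and DMSO (horizontal axis) of each tested member of each gene list (rows), with red for genes that rose, blue for genes that fell, a black bar at the list's median and a dashed line at the median of all genes, 0.11. List medians run from 6.74 for small nuclear RNAs to -1.63 for adhesion genes.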

How the data were processed

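Libraries of transcript 3′ ends from MV4-11 cells were compared at 24 h, 3 with DMSO and 3 with JPX-0700, grouped by their labels. The values are normalised read counts in a table the authors deposited, with decimal commas. The submitters' processing notes name, with no order or role, the GRCh38 build, DESeq2, featureCounts 2.0.3, STAR 2.4.2a, SAMtools 1.4 and FastQC 0.11.9. Annotation, counting strand and the treatment of reads with several matches: not given in the sources used here. Every deposited value was a whole multiple (tolerance 1e-06) of what 1 read is worth in its library, which gave the reads back; totals ran from 739418 to 6305586.

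Genes with a mean of at least 5 were tested by limma 3.58.1 (R 4.3.3) on log2(normalised count + 1), so fold changes are on that scale. The added 1 shrinks those of low genes, while 1 library at 0 can enlarge a difference. CCR2, at 0 in JPX-0700 replicate 3, had -4.80 with that library and -2.88 without it. The fit held 9 libraries with a mean per group and 6 residual degrees of freedom, two-sided, with Benjamini-Hochberg adjustment over 11910 genes. Gene classes and coordinates came from RefSeq GRCh38.p14, with 25555 of 26929 symbols matched. Values after ± are the SE of a log2 difference or, where stated, the SD. The test was checked on simulated data. Python 3.11.15 and pandas 2.3.3 were used for the tables.

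The members and gene lists were chosen with earlier results of these data known. The text names, among calls that held in each fit without 1 library, the 15 largest rises and falls among protein-coding genes (rises with at least 10 DMSO reads), the 8 of highest count among protein-coding and among other genes, and 6 with under 10 DMSO reads. It also names up to 4 called genes per list and direction, or the 2 of smallest p where none was called, and STAT3, STAT5A and STAT5B. Genes of the lists beyond these, and IDH2, MDH2, CAT and PIK3CD, were named after their values were seen. Alternatives were other offsets, filters, scalings, voom, 6 libraries only, a replicate block and leaving out each library. Leaving out the 3 libraries with the fewest genes and scaling on protein-coding genes were chosen after seeing the data. Some genes that these rules select, and 1 sequence, are not reported here.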

Additional observations from a re-analysis of the deposited data

How the results depend on the processing

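Without 1 DMSO or JPX-0700 library the number of genes called ran from 379 (without DMSO replicate 2) to 1037 (without JPX-0700 replicate 3) around 711, the number that rose from 374 to 911 around 651, and the number that fell from 5 to 135 around 60. Without the 3 libraries with the fewest genes the numbers were 2708, 2213 and 495. Scaling to equal read totals gave 380 higher and 281 lower, and scaling on protein-coding genes 433 and 126, with medians over all genes of -0.55 and -0.29 in place of 0.11. Equal read totals also ended, beside those given above, the rises of ALDH1L2, ASNS, BBC3, CASP4, CCNE2, DNAJA1, EGR1, GAS5, HSPD1, IARS, IER2, LARP7, MNT, MPHOSPH6, NFKB2, P4HA1, PSMC1, RPL38, SLC3A2, SNHG5, ST13, TRIM22, UBB, VEGFA, WDR74 and XAF1 (adjusted p = 0.0532 for NFKB2 to 0.209 for HSPD1). The number that fell was 92 with an offset of 5, 38 with no filter, 120 with TMM, 293 with quantile normalization, 34 with the 6 libraries only and 134 with voom; the causes were not tested, except that the last fit but one holds fewer samples. Over all 18 alternatives, 313 of the 711 calls were made in each, 311 of them higher. Structured RNAs took 12.2 percentage points more of the reads with JPX-0700 when MALAT1 and ribosomal protein genes were left out of the total, and 9.17 otherwise. Deviations of same-numbered DMSO and JPX-0700 libraries correlated at -0.09, -0.10 and -0.14, and those of other-numbered libraries at -0.06 to 0.19. Taken around means of only 3 libraries, these values cannot show whether the groups were paired by replicate number. Replicate 3 of JPX-0700 and of JPX-0750 had no read in 2570 and 2213 of the genes tested, and whether libraries shared a batch was not tested. A fit with the replicate number as a block called 675 genes, 613 higher and 62 lower. Tests by edgeR and DESeq2, planned for the recovered reads, were not run, and voom was the only test run on those reads. JPX-0700 libraries of 739418 to 1852375 reads limit what can be said of low genes that fell.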
